A study of Mus musculus with 18 samples.

Results

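Macrophages grown with plasma of mice without apolipoprotein E were compared with macrophages grown with wild-type plasma. The comparison took the 5 arrays labelled ApoE and the 4 arrays labelled WT, 9 of the 18 arrays of the series, over the 24705 of 25428 array rows that carry a gene symbol. All cells were mouse bone marrow-derived macrophages, grown from femoral marrow in medium with 30 ng/mL M-CSF, the growth factor that drives marrow precursors toward macrophages. On day 4 the serum-containing medium was exchanged for medium with 10% mouse plasma, and RNA was taken 48 hours later, on day 6. The WT group received plasma of wild-type C57BL/6J mice, and the ApoE group plasma of ApoE-KO C57BL/6J mice. All plasma donors had been on a Western diet for 8 weeks, so the diet is shared by the control group. The other 9 arrays received plasma of ApoE knockout mice that also lacked stabilin-1 (AS1, 3 arrays) or stabilin-2 (AS2, 6 arrays). The knockouts are those of the plasma donors, the genotype of the marrow donors is not named, and the labels do not say whether plasma was pooled or whether replicates were separate cultures. A p-value here reflects how much arrays of one group differ, and that spread may be technical only.

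Apolipoprotein E sits on remnant lipoproteins and is the ligand by which liver receptors remove them from blood, so mice without it accumulate cholesterol-rich lipoproteins, above all on a Western diet. Macrophages take up such particles, store the cholesterol as ester in droplets, and export it through transporters that sterol-sensing LXR receptors switch on. A cell short of amino acids, or with unfolded protein in its endoplasmic reticulum (ER), slows translation by phosphorylating eIF2. This favours translation of the transcription factor ATF4, which turns on amino acid transporters, amino acid synthesis and the enzymes that charge transfer RNA.

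Values are log2 array units, in which 1 unit is a 2-fold difference, and a gene is said to rise or fall where the limma test passed an adjusted p of 0.05 over all rows. Arrays are given in the order of replicates 1 to 4 (WT) and 1 to 5 (ApoE). With ApoE plasma 17 of 19 cytosolic transfer RNA synthetases and 36 of 36 mitosis genes rose. Among amino acid transporters 9 of 21 rose and 3 fell. Of MHC class II and costimulation genes 11 of 17 fell and 2 rose, and 19 of 32 interferon-stimulated genes and 12 of 20 NRF2 targets fell. Against these counts, 4177 of all 24705 rows passed (16.9%), 2111 of them higher (8.54%) and 2066 lower (8.36%). At least 2-fold differences were called in 335 rows (1.36%), 204 higher and 131 lower. Differences of at least 2 log2 units were called in 21 rows higher and 11 lower, whereas 2620 of the called rows differed by under 0.5. In 14.3% of rows every ApoE array lay to one side of every WT array. When rows of low mean were left out, 28.8% of the 14823 that remained were called. Protein-coding rows were called in 20.0% of cases, long noncoding RNA rows in 4.55% (38 higher, 101 lower) and miRNA rows in 5.24% (4 higher, 24 lower). The median difference over all rows was -0.0036.

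**Figure D1:**
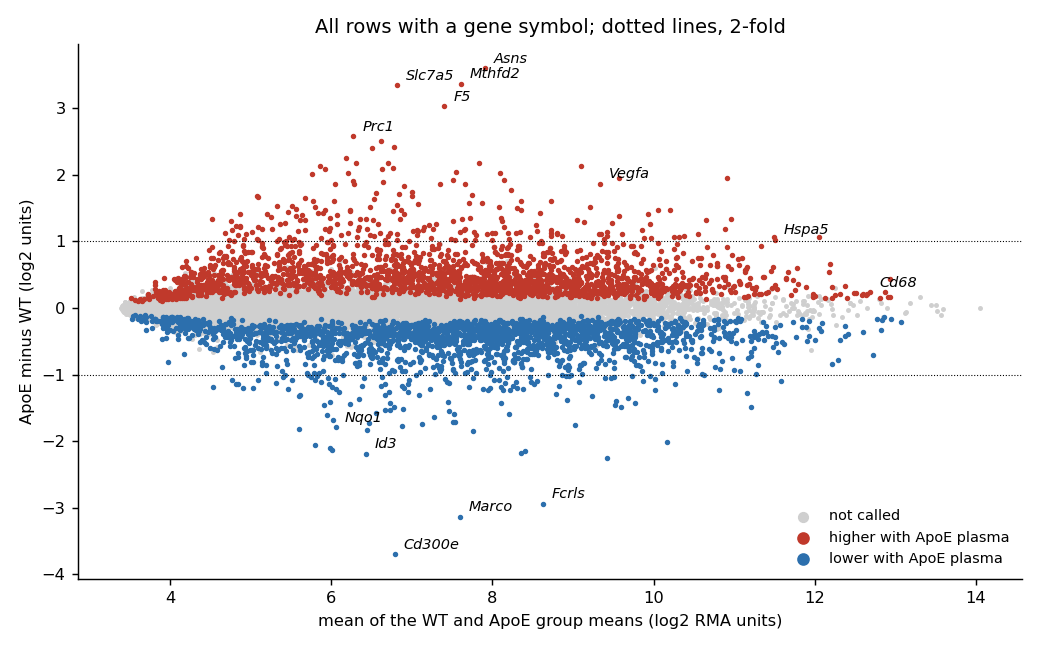
Difference between ApoE and WT plasma (vertical axis, log2 units) against the mean level of the row (horizontal axis, log2 units) for 24705 rows, red where higher and blue where lower with ApoE plasma at an adjusted p under 0.05. The called rows spread to both sides in like number, 2111 and 2066, and the largest differences lie at 3.60 for Asns and -3.70 for Cd300e.

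The arrays were read for defining macrophage genes. The M-CSF receptor gene Csf1r ranged from 12.55 to 12.68 in the WT arrays, Adgre1 (F4/80) from 12.53 to 12.57 and the lysosomal marker Cd68 from 12.50 to 12.62. Xist was read at 11.727 or higher in all 9 arrays and the Y-linked genes Kdm5d, Uty and Eif2s3y at 3.68 or lower. ApoE replicate 2 stood farthest from its own group (mean r = 0.9912 across rows, against 0.9942 to 0.9957 for the WT arrays), and ApoE replicate 5 was closest to an AS1 array (r = 0.9935) among arrays of other groups. Results were therefore also computed without both of these arrays. In ApoE replicate 1 the table has 24162 different values, in any other array 7087; no label says why.

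The 3 largest increases after ApoE plasma belonged to amino acid and one-carbon metabolism. Asns encodes asparagine synthetase, which makes asparagine from aspartate and glutamine. Its values were 6.29, 5.87, 6.42 and 5.82 in the WT arrays and 10.04, 9.44, 9.94, 10.004 and 9.09 in the ApoE arrays. The groups lay far apart, with ApoE replicates 5 and 2 the lowest of the raised arrays. Asns rose by 3.60 ± 0.19 (SE) log2 units, which is 12.1-fold, with an adjusted p of 7.18e-10. Mthfd2, a mitochondrial enzyme of the folate cycle, was measured at 5.73, 5.62, 6.16 and 6.18 with WT and 9.43, 8.99, 9.51, 9.60 and 8.93 with ApoE plasma (difference 3.37 ± 0.16, adjusted p 2.67e-10). Slc7a5, the light chain of the LAT1 carrier for large neutral amino acids, was at 5.32, 4.64, 5.41 and 5.17 (WT) and 8.43, 8.01, 8.78, 8.97 and 8.24 (ApoE) (difference 3.35 ± 0.19, adjusted p 2.63e-09). In each of these genes the ApoE arrays were all above the WT arrays, with replicate 2 or replicate 5 the lowest.

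**Figure D2:**
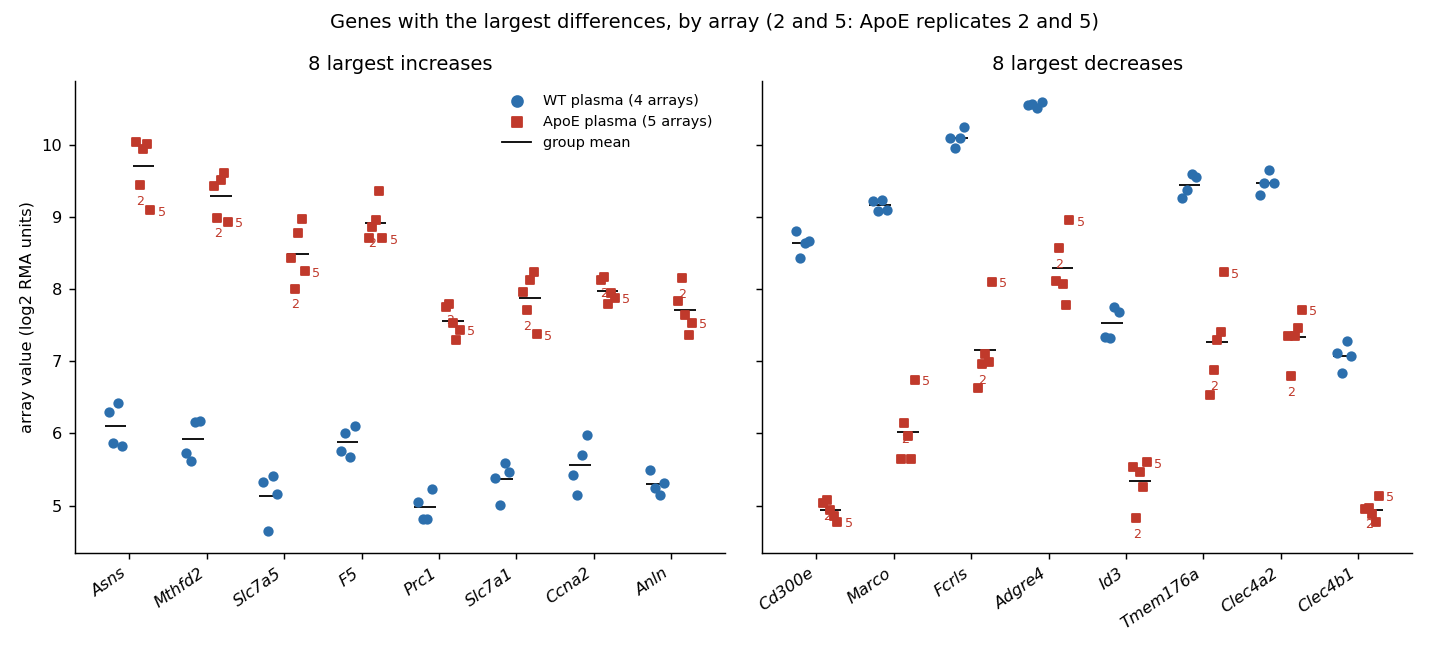
Array values (vertical axis, log2 units) of the 8 genes with the largest increases and the 8 with the largest decreases, with the 4 WT arrays as blue circles, the 5 ApoE arrays as red squares and group means as black bars. The groups do not overlap in any of the 16 genes; Asns runs from 5.82 to 6.42 in WT arrays and from 9.09 to 10.04 in ApoE arrays, and ApoE replicate 5 is the least lowered ApoE array for Marco, at 6.74, and for Fcrls, at 8.10.

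Promoters of the ATF4, amino acid, folate and synthetase lists were searched for the core of the C/EBP-ATF response element (CARE), to which ATF4 binds. The motif searched was TGATGNAA on both strands, and list members were counted whether or not they were called. In the RefSeq promoter table for GRCm38.p6 (250 bases before to 50 after each start site) it occurred in 4.51% of 27025 genes. It was found in 5 of 12 cytosolic aminoacyl-tRNA synthetase genes with a promoter there (Aars, Gars, Iars, Tars and Yars). Of 19 ATF4 and CHOP regulators 5 held it (Atf3, Chac1, Jdp2, Nupr1 and Trib3), and of 11 synthesis genes 2 (Asns and Got1). Among 15 amino acid transporter genes the 3 matches were Slc1a4, Slc7a11 and Slc7a7, of which only Slc1a4 passed, rising by 0.59. None of 11 folate enzyme genes held it. Below, capitals mark the match and bases run 5′ to 3′ on the gene's strand: Asns at chr6:7693160-7693459 (minus strand, match from position -23), Nupr1 at chr7:126625421-126625720 (minus strand, -110) and Aars at chr8:111033592-111033891 (plus strand, -112 and 10).
Asns: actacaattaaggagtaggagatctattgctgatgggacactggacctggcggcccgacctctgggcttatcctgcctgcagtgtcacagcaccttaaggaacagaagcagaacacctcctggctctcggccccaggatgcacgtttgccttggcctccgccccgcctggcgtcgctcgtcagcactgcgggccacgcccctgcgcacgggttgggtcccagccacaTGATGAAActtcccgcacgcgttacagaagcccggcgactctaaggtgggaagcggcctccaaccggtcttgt
Nupr1: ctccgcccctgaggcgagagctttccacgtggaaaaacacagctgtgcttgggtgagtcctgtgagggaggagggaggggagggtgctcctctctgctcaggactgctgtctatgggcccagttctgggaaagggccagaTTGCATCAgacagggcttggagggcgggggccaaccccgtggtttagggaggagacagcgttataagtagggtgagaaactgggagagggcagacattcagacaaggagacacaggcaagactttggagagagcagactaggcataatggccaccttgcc
Aars: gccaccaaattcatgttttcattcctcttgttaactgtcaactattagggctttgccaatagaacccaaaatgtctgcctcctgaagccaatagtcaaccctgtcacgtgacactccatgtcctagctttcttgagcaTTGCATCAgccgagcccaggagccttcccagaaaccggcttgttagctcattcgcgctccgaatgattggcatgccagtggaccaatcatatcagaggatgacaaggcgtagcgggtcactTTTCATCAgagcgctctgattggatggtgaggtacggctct

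Among the ATF4 and CHOP regulators, 15 of 21 measured genes rose and 1 fell, with a median difference of 0.46. Against a minimum difference of 0.5 log2 units 6 were called higher. Nupr1, a small stress-induced chromatin protein, was at 6.30, 6.83, 6.77 and 6.26 with WT and 8.66, 8.35, 8.96, 8.61 and 7.76 with ApoE plasma. Ddit3, which encodes the ATF4-induced factor CHOP, was at 6.34, 6.54, 6.32 and 6.46 (WT) and 8.20, 8.09, 8.73, 8.38 and 7.97 (ApoE). Neither gene had overlapping groups, and they rose by 1.93 ± 0.20 and 1.86 ± 0.12. Atf4 itself rose by 1.48, the glutathione-degrading enzyme gene Chac1 by 1.38, the kinase-like feedback inhibitor Trib3 by 1.32 and the transfer RNA exporter Xpot by 0.94. Of the kinases that phosphorylate eIF2, Eif2ak3 (PERK, the ER sensor) rose by 0.49, Eif2ak1 (the heme sensor) fell by 0.24, and Eif2ak2 (PKR) stood at -0.04 with an adjusted p of 0.849. The C/EBP partner gene Cebpg differed by 0.14 (adjusted p 0.383).

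Amino acid carriers changed in both directions. Of 21 transporter genes 9 rose and 3 fell (median 0.17), and the groups did not overlap in 11. Slc7a1, the carrier for arginine and lysine, was at 5.39, 5.01, 5.59 and 5.47 (WT) and 7.96, 7.71, 8.13, 8.23 and 7.37 (ApoE), a rise of 2.52 ± 0.21. Slc38a2, a sodium-driven carrier of small neutral amino acids, rose by 1.41, the shared heavy chain Slc3a2 by 0.92 and the cationic carrier Slc7a2 by 0.74. Against them, Slc7a8, the LAT2 light chain, was at 10.83, 10.68, 10.60 and 10.73 (WT) and 10.12, 9.81, 10.42, 10.47 and 10.32 (ApoE) and fell by 0.48, and Slc43a2 fell by 0.29. The lysosomal arginine sensor Slc38a9 was at -0.19 (adjusted p 0.13).

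Synthesis enzymes rose in 6 of 12 cases and fell in 1. Aldh18a1, which starts proline synthesis from glutamate, was at 4.81, 4.58, 4.77 and 4.99 (WT) and 7.004, 6.73, 7.19, 7.25 and 6.47 (ApoE) and rose by 2.14 ± 0.13. In the serine pathway Psat1 rose by 1.39 and Psph by 0.38. The cytosolic transaminase Got1 rose by 0.85, whereas its mitochondrial counterpart Got2 was 10.77 against 10.72 (adjusted p 0.671). Glul, which makes glutamine, fell by 0.48; without ApoE replicate 4, 2 of these enzymes fell. Of 12 folate enzymes 5 rose and 0 fell: after Mthfd2 came the mitochondrial serine enzyme Shmt2 at 1.31, Mthfd1l at 0.97, the cytosolic Mthfd1 at 0.58 and Aldh1l2 at 0.39.

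Aminoacyl-tRNA synthetases join each amino acid to its transfer RNA, with separate sets in cytosol and mitochondria. Of 19 cytosolic synthetases 17 rose and 0 fell, with a median of 1.03 and non-overlapping groups in 16. The alanine enzyme Aars was at 7.28, 7.09, 7.002 and 7.34 (WT) and 9.11, 8.95, 9.21, 9.37 and 8.85 (ApoE) (rise of 1.92 ± 0.09). Cars, for cysteine, rose by 1.58, Sars (serine) by 1.51, Yars (tyrosine) by 1.35, Mars1 (methionine) by 1.34, Iars (isoleucine) by 1.27 and Gars (glycine) by 1.11. The exceptions were Qars for glutamine, 9.26 against 9.21 (adjusted p 0.773), and Farsa for phenylalanine, 6.80 against 6.78 (adjusted p 0.947). Of 16 mitochondrial synthetases 3 rose and 1 fell, with a median of 0.05, among them Iars2 at 0.57 and Nars2 at 0.45. That is 25.0% called, near the 28.8% of rows left after those of low mean were dropped. The mean of the 19 cytosolic genes was 7.83 to 7.87 in the WT arrays and 8.56 to 8.95 in the ApoE arrays, with ApoE replicate 5 the lowest.

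Chaperones of the ER rose almost as a whole: 24 of 27 measured, 0 lower, with a median of 0.60. Against a minimum difference of 0.5 log2 units 9 were called higher. Ero1a, the oxidase that feeds disulfide bond formation, was at 9.50, 9.51, 9.35 and 9.50 (WT) and 11.07, 11.05, 11.01, 11.23 and 10.33 (ApoE). Hyou1, an exchange factor for the ER Hsp70, was at 8.95, 8.92, 8.71 and 8.90 (WT) and 10.32, 10.13, 10.34, 10.52 and 9.99 (ApoE). Both pairs of groups were apart, with rises of 1.47 and 1.39. Hspa5, the ER Hsp70 (BiP), rose by 1.02 ± 0.07, its co-chaperone Dnajb9 by 1.29, and the disulfide isomerases Pdia6 and Pdia4 by 1.19 and 1.06. The ER stress sensor gene Atf6 was at 0.04 (adjusted p 0.66). The ER stress response element (ERSE) was searched in these promoters as CCAAT and, after 9 bases, CCACG, on both strands; every match therefore also holds the CCAAT box counted further on. It occurred in 0.137% of all genes in the promoter table and in 10 of 23 ER genes, among them Hspa5 at chr2:34771840-34772139 (plus strand, match from -65) and Pdia6 at chr12:17266339-17266638 (plus strand, -98), shown with the match in capitals.
Hspa5: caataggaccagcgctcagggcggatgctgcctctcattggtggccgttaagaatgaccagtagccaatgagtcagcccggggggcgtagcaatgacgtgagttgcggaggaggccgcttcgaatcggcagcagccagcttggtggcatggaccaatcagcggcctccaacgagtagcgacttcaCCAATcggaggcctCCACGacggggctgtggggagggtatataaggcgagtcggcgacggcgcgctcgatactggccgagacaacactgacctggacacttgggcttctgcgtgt
Pdia6: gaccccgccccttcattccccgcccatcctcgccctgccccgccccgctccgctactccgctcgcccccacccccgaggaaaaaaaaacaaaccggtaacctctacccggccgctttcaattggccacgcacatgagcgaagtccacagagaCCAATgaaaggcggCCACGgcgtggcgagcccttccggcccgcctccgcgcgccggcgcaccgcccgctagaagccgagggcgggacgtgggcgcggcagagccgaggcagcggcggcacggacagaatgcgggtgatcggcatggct

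Outside the ER, the Hsp70 and Hsp60 proteins of mitochondria stood out by size. Of 15 cytosolic and mitochondrial chaperone genes 5 rose and 0 fell, with a median of 0.15. Hspa9, the mitochondrial Hsp70, rose by 1.34 ± 0.08, from 10.29, 10.29, 10.33 and 10.28 (WT) to 11.90, 11.62, 11.59, 11.76 and 11.29 (ApoE). Hspd1, the mitochondrial Hsp60, rose by 0.68 and the mitochondrial protease Lonp1 by 0.64. The abundant cytosolic Hspa8 was 12.85 against 12.78 (adjusted p 0.305). Hspa4, another cytosolic Hsp70 family member, rose by 0.32.

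The machinery of translation itself showed an uneven picture. Cytosolic ribosomal protein genes were called in 3 of 60 cases (2 higher, 1 lower), against 16.9% of all rows, with a median of -0.01. Of the 60, 23 were read below the array median of 4.37 in WT arrays. The 2 higher became 1 without WT replicate 1 or ApoE replicate 1 or 2, and the 1 lower became 2 without ApoE replicate 1, 3 or 5. Ribosome biogenesis genes rose in 10 of 26 cases (15 without ApoE replicates 2 and 5) and fell in 0, with the nucleolar proteins Gnl3 at 1.31, Ddx21 at 0.80, Nolc1 at 0.68 and Nop58 at 0.67. Initiation factor genes rose in 11 of 50 cases and fell in 3. That is 28.0% called, near the 28.8% of rows left after those of low mean were dropped. Against a minimum difference of 0.5 log2 units 0 initiation factor genes were called. Eif1a rose by 0.92, Eif2s2 (the beta subunit of eIF2) by 0.80 and Eif3b by 0.74, and the translation repressor gene Eif4ebp2 fell by 0.40. Small nucleolar and Cajal body RNAs, which guide modification of ribosomal and spliceosomal RNA, were called in 10 of 107 cases (6 higher, 4 lower). Their counts changed with single arrays: 10 were higher without WT replicate 4, and 1 and 2 were lower without WT replicate 1 and WT replicate 4. Proteasome subunits rose in 8 of 37 cases and fell in 3 (29.7% called, also near 28.8%). Against the minimum difference 0 of them were called. Psmd14, the deubiquitinase of the lid, rose by 0.42, and Psmb9, a subunit of the interferon-induced immunoproteasome, fell by 0.48.

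Genes of cell division rose throughout. All 36 measured genes of the mitosis and cytokinesis list rose, with a median of 1.43, and the groups did not overlap in any of them. Without ApoE replicates 2 and 5 the count was 35 and the median 1.33. Prc1, which bundles microtubules of the central spindle, was at 5.06, 4.82, 4.82 and 5.23 (WT) and 7.75, 7.79, 7.54, 7.30 and 7.43 (ApoE) (rise of 2.58 ± 0.11, adjusted p 9.82e-11). Ccna2, cyclin A2, was at 5.42, 5.15, 5.70 and 5.98 (WT) and 8.12, 8.17, 7.79, 7.94 and 7.88 (ApoE). Anln, an actin-binding protein of the cleavage furrow, was at 5.49, 5.24, 5.15 and 5.31 (WT) and 7.83, 8.15, 7.65, 7.37 and 7.53 (ApoE). ApoE replicate 2 was the highest array in each of these genes, and the mean of all 36 genes was also highest there (7.42, against 7.02 to 7.24 in the other ApoE arrays and 5.65 to 5.77 in WT arrays).

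Further division genes were Ect2, which activates RhoA for cleavage, at 2.18, the DNA topoisomerase Top2a at 2.18, cyclin B2 (Ccnb2) at 2.18, the proliferation antigen Mki67 at 2.13 and the spindle motor Kif11 at 2.10. Many promoters of such genes carry a cell cycle homology region (CHR), TTTGAA, and CCAAT boxes. On both strands TTTGAA occurred in 24 of 30 mitosis genes with a promoter in the table, against 20.2% of all genes, and CCAAT in 22 of 30, against 41.1%. The Prc1 promoter (chr7:80294201-80294500, plus strand) is shown with TTTGAA (from -5) in capitals; its CCAAT box starts at -37.
Prc1: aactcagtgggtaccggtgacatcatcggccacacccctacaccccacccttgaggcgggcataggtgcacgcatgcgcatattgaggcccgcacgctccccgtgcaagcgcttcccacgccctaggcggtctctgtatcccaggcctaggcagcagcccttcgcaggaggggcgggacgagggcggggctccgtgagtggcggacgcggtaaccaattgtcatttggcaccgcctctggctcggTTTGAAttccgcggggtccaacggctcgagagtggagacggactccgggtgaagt

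DNA replication genes rose in part. Of 35 measured, 21 rose and 0 fell, with a median of 0.38. Rrm2, the small subunit of ribonucleotide reductase, was at 6.11, 5.88, 6.27 and 6.29 (WT) and 7.86, 8.01, 7.35, 7.29 and 7.51 (ApoE) and rose by 1.47 ± 0.14. Pola1, the primase-bound DNA polymerase, rose by 0.81, and the helicase subunits Mcm3 and Mcm2 by 0.79 and 0.76. The polymerase clamp Pcna was 12.01 against 11.82 (adjusted p 0.157) and the thymidine kinase gene Tk1 7.49 against 7.59 (adjusted p 0.73). The E2F site TTTGGCGC, on either strand, occurred in 5 of 29 genes of this list with a promoter against 0.585% of all genes, and TTTCCCGC in 6 of 29 against 1.24%. Replication-dependent histone genes, whose messages lack poly(A) tails, rose in 8 of 45 cases and fell in 1 (0 without WT replicate 3). That is 20.0% called, near the 16.9% of all rows, with a median of 0.02. Against a minimum difference of 0.5 log2 units 2 were called higher. H2ac10 and H2bc12 stood at 1.04 and 1.04. These genes are near-identical copies, and single members may share signal.

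Regulators of entry into the cycle moved both ways, 12 higher and 4 lower of 25. The G1 kinase Cdk4 was at 9.02, 9.01, 9.08 and 9.08 (WT) and 9.86, 9.58, 9.96, 10.01 and 9.73 (ApoE) and rose by 0.78. Cyclin E2 (Ccne2) rose by 0.74 and Myc by 0.64. The inhibitor genes Cdkn1b (p27) and Cdkn1a (p21) fell by 0.45 and 0.34, and the retinoblastoma gene Rb1 by 0.45. Of 13 p53 targets 2 rose and 5 fell: the growth-arrest gene Gadd45a was at 7.42, 7.41, 7.20 and 7.31 (WT) and 9.10, 9.27, 9.16, 9.23 and 8.81 (ApoE), a rise of 1.78 ± 0.09, whereas Sesn1 fell by 1.05 and Trp53inp1 by 0.76. Of 16 enzymes of purine and pyrimidine synthesis 8 rose and 1 fell (2 without ApoE replicate 1), with Cad, which starts pyrimidine synthesis, at 0.61, Impdh1, which commits to guanine nucleotides, at 0.54, and the salvage enzyme Hprt at -0.35. Macrophage markers were lower in the same arrays (a mean of 10.44 to 10.66 over 9 markers, against 11.002 to 11.054 in WT arrays), and their part in the proliferation values was not tested. These are bulk arrays, in which fewer cells of a type and less RNA per cell cannot be told apart.

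**Figure D3:**
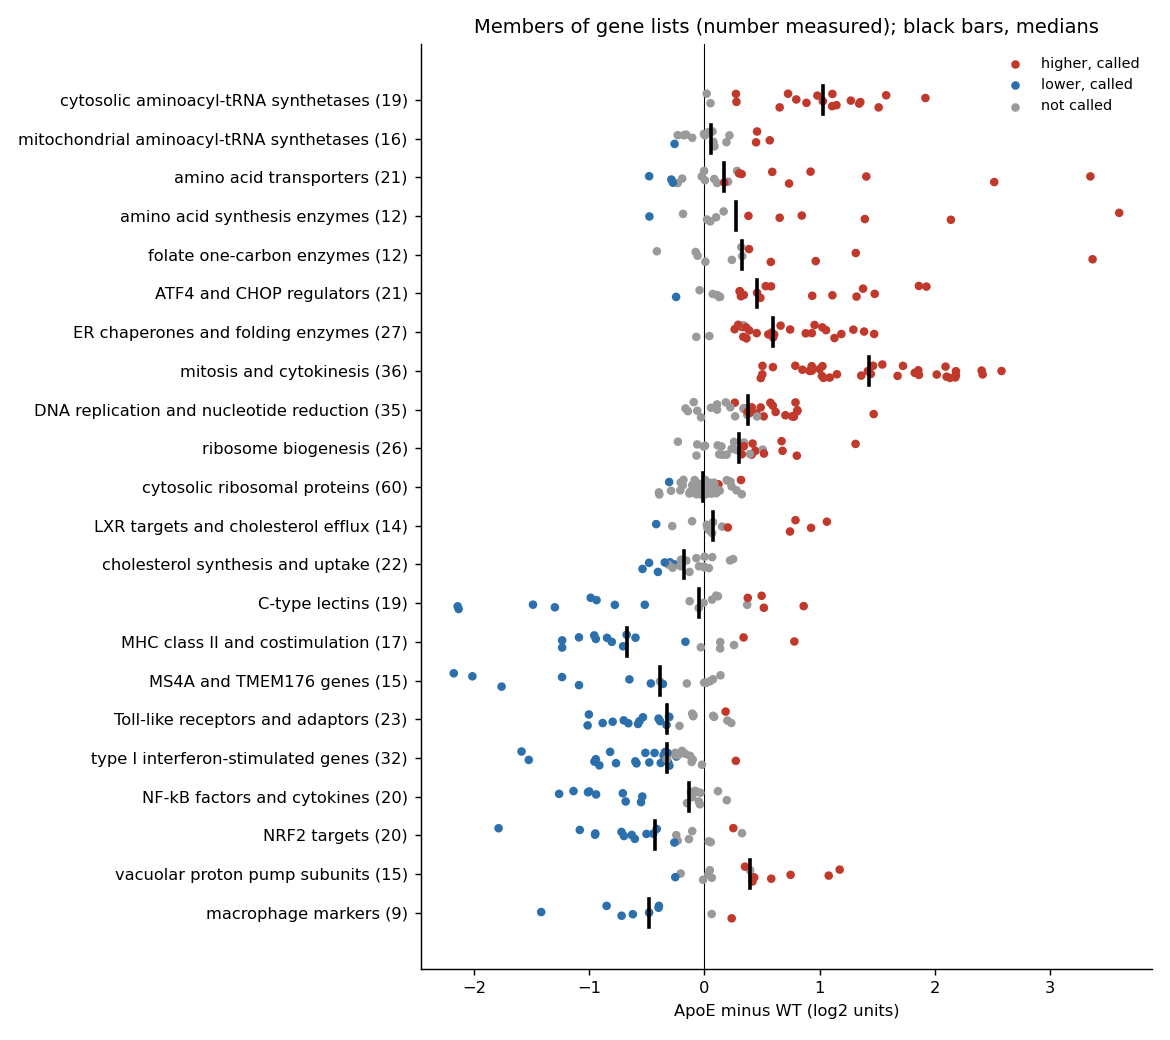
Each point is 1 gene of a list, placed by its difference between ApoE and WT plasma (horizontal axis, log2 units), red or blue where called higher or lower and grey where not called, with the list's median as a black bar. All 36 mitosis genes are red (median 1.43), cytosolic synthetases reach a median of 1.03 against 0.05 for the mitochondrial ones, and the ribosomal proteins stay around their median of -0.01.

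Lipid genes changed in part of each pathway. The LXR-driven sterol exporters Abca1 and Abcg1 were not the whole list: of 14 LXR and efflux genes 5 rose and 1 fell (2 without WT replicate 4 or ApoE replicate 3), with a median of 0.07. Abcg1, which loads cholesterol onto HDL, was at 9.72, 9.75, 9.68 and 9.74 (WT) and 10.74, 10.65, 10.82, 10.85 and 10.87 (ApoE). Abca1, which loads lipid-poor apolipoprotein A-I, was at 10.89, 10.93, 10.77 and 10.91 (WT) and 11.86, 11.93, 11.68, 11.75 and 11.78 (ApoE). The arrays of both genes did not overlap. Npc1, which moves cholesterol out of the lysosome, rose by 0.79, and Mylip, which degrades the LDL receptor, by 0.74. Cyp27a1, which makes 27-hydroxycholesterol, fell by 0.42. The macrophages' own Apoe was 11.77 against 11.70 (adjusted p 0.696).

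Cholesterol synthesis and uptake genes fell in 6 of 22 cases and rose in 0, with a median of -0.18. That is 27.3% called, near the 28.8% of rows left after those of low mean were dropped. Without WT replicate 1, or with the ApoE and WT arrays alone, 3 fell. Against a minimum difference of 0.5 log2 units 0 fell. Nsdhl, a late demethylation enzyme, was at 7.52, 7.34, 7.34 and 7.26 (WT) and 6.83, 6.52, 6.98, 6.88 and 6.93 (ApoE) and fell by 0.54. Srebf2, the master regulator of the pathway, was at 8.52, 8.31, 8.29 and 8.25 (WT) and 7.83, 7.86, 7.94, 7.87 and 7.83 (ApoE) and fell by 0.48, and its escort protein gene Scap fell by 0.34. The groups did not overlap in 3 of the 22 genes, Nsdhl and Srebf2 among them, against 14.3% of all rows. Of 15 fatty acid synthesis and desaturation genes 7 rose and 2 fell, and against the minimum difference 0 of them were called. The desaturase Scd2 was at 6.01, 5.88, 5.81 and 6.05 (WT) and 6.56, 6.33, 7.11, 7.26 and 7.16 (ApoE) (rise of 0.95), the elongase Elovl6 rose by 0.59, acetyl-CoA carboxylase (Acaca) by 0.50 and fatty acid synthase (Fasn) by 0.39. Fads1, which makes arachidonic acid, fell by 0.42, and the NADPH-producing malic enzyme Me1 by 0.63.

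Lipid storage, lipolysis and oxidation genes were divided, 9 higher and 6 lower of 29. Fabp5, a cytosolic fatty acid carrier, was at 6.51, 6.53, 6.42 and 6.63 (WT) and 8.83, 8.72, 8.46, 8.74 and 8.12 (ApoE) and rose by 2.05 ± 0.14. Hilpda, which inhibits lipolysis at droplets, rose by 0.80, as did G0s2, which inhibits the same lipase, by 0.51. That lipase, Pnpla2 (ATGL), fell by 0.45, hormone-sensitive lipase (Lipe) by 0.61 and lipoprotein lipase (Lpl) by 0.78. Pparg, a lipid-sensing nuclear receptor, fell by 0.47. The lysosomal acid lipase gene Lipa was 13.08 against 13.16 (adjusted p 0.179).

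Scavenger and lipoprotein receptors numbered 2 higher and 6 lower of 21 (4 higher without WT replicate 2 or without ApoE replicate 3). Marco, a collagen-like scavenger receptor for bacteria and particles, was at 9.22, 9.08, 9.23 and 9.10 (WT) and 5.64, 6.14, 5.96, 5.65 and 6.74 (ApoE), a fall of 3.14 ± 0.31. ApoE replicate 5 was the least lowered, and all 5 ApoE arrays were below all 4 WT arrays. Scarb1, the HDL receptor, fell by 1.03, Scarf1 by 0.76 and Cxcl16, which binds oxidised lipoprotein, by 0.65. Lrp12, a member of the LDL receptor family, was at 7.02, 6.89, 7.27 and 7.13 (WT) and 9.38, 8.88, 9.20, 9.43 and 8.63 (ApoE) and rose by 2.03 ± 0.13. Cd36, the main receptor for oxidised LDL, differed by 0.11 (adjusted p 0.348), Lrp1 by -0.06 (adjusted p 0.586) and the mannose receptor Mrc1 by 0.13 (adjusted p 0.243). Stab1, deleted in another of the plasma donor lines, fell, at 11.83 with ApoE against 12.02 with WT plasma (adjusted p 0.0188). Its adjusted p was as high as 0.0659 among the alternative settings, leaving aside the test against a minimum difference. Stab2 was 5.48 against 5.22 (adjusted p 0.34).

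Several surface receptor families held the largest decreases. Cd300e, an activating receptor of monocytes, was at 8.81, 8.44, 8.64 and 8.66 (WT) and 5.04, 5.07, 4.94, 4.85 and 4.77 (ApoE). It fell by 3.70 ± 0.17 (adjusted p 1.65e-10), the largest decrease among the named genes. Fcrls, a macrophage protein related to Fc receptors, was at 10.09, 9.95, 10.10 and 10.24 (WT) and 6.64, 6.96, 7.10, 6.99 and 8.10 (ApoE), and Adgre4, an adhesion GPCR of monocytes, at 10.55, 10.56, 10.51 and 10.59 (WT) and 8.11, 8.57, 8.07, 7.77 and 8.96 (ApoE). ApoE replicate 5 was the highest ApoE array of both, and neither gene's groups overlapped. They fell by 2.94 ± 0.27 and 2.26 ± 0.17.

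C-type lectins, which bind sugars of microbes and dying cells, fell in 8 and rose in 4 of 19 cases. Clec4a2 and Clec4b1, neighbours in one receptor cluster, fell by 2.14 and 2.13; Clec4b1 was at 7.11, 6.83, 7.29 and 7.07 (WT) and 4.96, 4.96, 4.88, 4.78 and 5.14 (ApoE). Clec4a1, Clec4n (Dectin-2) and Clec4a3 of the same cluster fell by 1.49, 1.30 and 0.99, while its members Clec4d and Clec4e were at -0.05 and 0.37 (adjusted p 0.739 and 0.0822). These are close paralogs, and signal shared between their probes cannot be told apart. Clec1b, the podoplanin receptor also found on platelets, rose by 0.86, and Clec5a by 0.38.

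Of 27 paired and immunoreceptor genes 7 rose and 10 fell. Cd200r4, an activating member of the CD200 receptor family, was at 4.99, 4.34, 5.36 and 5.53 (WT) and 7.78, 7.09, 7.34, 7.36 and 6.98 (ApoE), a rise of 2.26 ± 0.21. A pair of sialic acid-binding lectins went opposite ways: Cd33 rose by 1.60, from 7.94, 7.68, 7.97 and 8.09 (WT) to 9.25, 8.99, 9.63, 9.97 and 9.78 (ApoE), and Siglece fell by 1.82, from 6.54, 6.19, 6.79 and 6.52 (WT) to 4.79, 4.52, 4.57, 4.55 and 5.03 (ApoE). In both of them the WT and ApoE arrays did not overlap. Within the CD300 family Cd300lf rose by 0.81 while Cd300lb and Cd300ld fell by 0.48 and 0.36. Trem2, a lipid-binding receptor, was 11.04 against 11.22 (adjusted p 0.0898), and Treml4 fell by 1.22.

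Four-span membrane genes fell in 8 of 15 cases and rose in 0. Tmem176a, a cation channel of immature dendritic cells and macrophages, was at 9.26, 9.38, 9.59 and 9.55 (WT) and 6.53, 6.88, 7.30, 7.41 and 8.23 (ApoE), and its neighbour Tmem176b at 11.17, 11.07, 11.15 and 11.31 (WT) and 8.47, 8.93, 9.25, 9.21 and 9.95 (ApoE). They fell by 2.17 and 2.01, with ApoE replicate 5 the highest ApoE array of both. Among the MS4A genes Ms4a6b, Ms4a4a and Ms4a6c fell by 1.76, 1.24 and 1.09. Ms4a1, Ms4a2 and Ms4a3, which belong to B cells, mast cells and myeloid precursors, were at 0.05, 0.08 and 0.14 (adjusted p 0.743, 0.302 and 0.641).

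Of 17 MHC class II and costimulation genes, which present antigen to T cells, 11 fell, 2 rose and 4 did not pass, with a median of -0.67 (1 rose without WT replicate 1). Against a minimum difference of 0.5 log2 units 2 were called lower. Ciita, the transactivator of class II genes, was at 8.42, 8.70, 8.56 and 8.56 (WT) and 6.92, 7.32, 7.28, 6.84 and 8.25 (ApoE), and H2-Eb1, a class II beta chain, at 10.54, 10.71, 10.69 and 10.62 (WT) and 8.95, 9.11, 9.38, 9.40 and 10.20 (ApoE). Each fell by 1.23. The chains H2-Aa and H2-Ab1 and the invariant chain Cd74 fell by 1.09, 0.84 and 0.71, and the costimulator Cd40 by 0.60. Cd274 (PD-L1), an inhibitory ligand, rose by 0.78, whereas Cd86 stood at 0.26 (adjusted p 0.0636). Of 9 Fc receptor genes 5 fell and 0 rose (3 fell without WT replicate 3), with the high-affinity IgG receptor Fcgr1 at -0.72. Of 16 complement genes 7 fell and 0 rose, among them the C1q chain gene C1qa at -1.14, with its partners C1qb and C1qc at -0.34 and -0.42, and the anaphylatoxin receptors C3ar1 and C5ar1 at -0.50 and -0.45.

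Genes for sensing microbes fell in part, among receptors, adaptors and NF-kB inhibitors and subunits. Of 23 Toll-like receptor and adaptor genes 13 fell and 1 rose, with a median of -0.33 (0 rose without WT replicate 1 or ApoE replicate 1, and 2 without ApoE replicate 2). Tlr1, which pairs with Tlr2 to bind lipopeptides, was at 9.37, 9.44, 9.36 and 9.51 (WT) and 8.44, 8.33, 8.41, 8.41 and 8.44 (ApoE) and fell by 1.01. Tlr9, the receptor for unmethylated DNA, fell by 1.002, the shared adaptor Myd88 by 0.88 and Tlr13 by 0.80. The lipopolysaccharide receptor Tlr4 was 9.77 against 9.69 (adjusted p 0.484), while its co-receptor Cd14 fell by 0.40. Of 20 NF-kB factors and cytokines 9 fell and 0 rose: the inhibitor genes Nfkbie, Nfkbiz and Nfkbia fell by 1.26, 1.01 and 0.55, the subunit Nfkb2 by 0.999 and Il10 by 1.14. The subunits Rela and Rel were at -0.10 and -0.03 (adjusted p 0.453 and 0.836).

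Interferon-stimulated genes fell in 19 of 32 cases and rose in 1, with a median of -0.33. Irf7, the factor that amplifies type I interferon, was at 9.14, 8.80, 9.06 and 8.97 (WT) and 7.34, 6.84, 7.50, 7.69 and 7.67 (ApoE), and fell by 1.59 ± 0.13. Ifi27l2a fell by 1.52, the DNA-sensing family member Ifi204 by 0.95, and the 2′-5′ oligoadenylate synthetases Oas3 and Oas2 by 0.94 and 0.82. Ifitm3, which blocks viral entry, rose by 0.27, and Bst2 was at -0.02 (adjusted p 0.965). Of 12 GBP and IRG GTPases 4 fell and 0 rose, and 2 fell without WT replicate 1, WT replicate 4, ApoE replicate 3 or ApoE replicate 4. Irgm2 was at 6.84, 6.69, 6.80 and 6.70 (WT) and 5.74, 5.83, 6.02, 6.04 and 5.76 (ApoE), a fall of 0.88. The core of the interferon-stimulated response element (ISRE), searched as AAANNGAAA on both strands, occurred in 12.1% of all genes in the promoter table, in 16 of 22 genes of the interferon list and in 8 of 8 GBP and IRG genes. The promoters of Oas3 (chr5:120777610-120777909, minus strand, match from -74) and of Irgm2 (chr11:58214727-58215026, plus strand, -63) show it in capitals.
Oas3: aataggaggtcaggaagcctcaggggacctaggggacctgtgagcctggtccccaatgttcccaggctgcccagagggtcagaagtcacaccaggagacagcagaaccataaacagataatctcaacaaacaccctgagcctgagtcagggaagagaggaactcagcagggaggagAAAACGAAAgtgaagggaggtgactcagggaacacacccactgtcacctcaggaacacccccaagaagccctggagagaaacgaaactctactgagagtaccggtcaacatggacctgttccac
Irgm2: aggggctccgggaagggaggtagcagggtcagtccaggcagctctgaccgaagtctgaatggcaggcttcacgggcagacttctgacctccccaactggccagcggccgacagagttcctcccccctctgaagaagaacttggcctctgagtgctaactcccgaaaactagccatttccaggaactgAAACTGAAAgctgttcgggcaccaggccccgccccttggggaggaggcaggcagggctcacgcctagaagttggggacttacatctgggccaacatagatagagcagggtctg

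Cytokine and chemokine genes were not moved one way. In the interleukin-1 family 4 of 17 rose and 4 fell, and both agonists of the same receptor were split. Il1a was at 4.15, 4.11, 4.21 and 4.46 (WT) and 5.73, 6.45, 5.80, 5.95 and 5.64 (ApoE), a rise of 1.68 ± 0.12. Il1b was at 6.49, 6.43, 7.05 and 7.05 (WT) and 4.96, 4.87, 5.01, 5.34 and 5.55 (ApoE), a fall of 1.61 ± 0.18. The groups did not overlap in either gene. The inflammasome sensor Nlrp3 and its adaptor Pycard fell by 1.01 and 0.69, Il18 fell by 0.39, and its soluble antagonist Il18bp rose by 0.82. Among 20 chemokine ligands 5 rose and 7 fell: the neutrophil attractant Cxcl2 and the monocyte attractant Ccl2 rose by 1.20 and 0.84, and Ccl5 and Cxcl14 fell by 1.52 and 1.46. Of 11 chemokine receptors 2 rose and 4 fell. Ccr2, the Ccl2 receptor of inflammatory monocytes, was at 8.45, 8.68, 8.75 and 8.83 (WT) and 6.83, 6.95, 6.80, 6.40 and 7.18 (ApoE) and fell by 1.84, and Cx3cr1, the fractalkine receptor, was at 7.37, 7.13, 7.50 and 7.43 (WT) and 5.33, 6.15, 5.15, 5.42 and 5.61 (ApoE) and fell by 1.83. Ccrl2, in the same list, rose by 1.64.

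Antioxidant genes under NRF2 fell in 12 of 20 cases and rose in 1, with a median of -0.43. The 1 higher became 0 without WT replicate 1, 3 or 4 or ApoE replicate 1, 2 or 4, and 2 without WT replicate 2. Nqo1, a quinone reductase, was at 6.88, 6.78, 6.76 and 7.39 (WT) and 5.22, 4.88, 5.31, 5.21 and 5.20 (ApoE), a fall of 1.79 ± 0.14. Gclm and Gclc, the subunits of the enzyme that limits glutathione synthesis, fell by 0.95 and 0.60, heme oxygenase (Hmox1) by 0.72 and the glutathione transferase Gstp1 by 1.08. Catalase (Cat) was at -0.10 (adjusted p 0.0781) and glutathione reductase (Gsr) at 0.04 (adjusted p 0.705). The antioxidant response element core TGACNNNGC, searched on both strands, occurred in 7 of 15 of these genes with a promoter in the table and in 3781 of all 27025 genes. It is in capitals in the Gclm promoter (chr3:122245307-122245606, plus strand, match from -134).
Gclm: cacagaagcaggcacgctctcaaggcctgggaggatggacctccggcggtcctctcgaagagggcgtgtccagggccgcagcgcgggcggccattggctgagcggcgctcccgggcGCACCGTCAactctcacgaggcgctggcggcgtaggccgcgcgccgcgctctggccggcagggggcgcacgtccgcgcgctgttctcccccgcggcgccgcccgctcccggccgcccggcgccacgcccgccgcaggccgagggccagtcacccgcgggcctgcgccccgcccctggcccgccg

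Cbr2, a carbonyl reductase, and Slc13a3, a carrier of dicarboxylates such as succinate, were also among the 15 largest decreases. Cbr2 was at 6.90, 6.40, 7.34 and 7.48 (WT) and 4.82, 5.27, 4.88, 4.87 and 4.80 (ApoE), and Slc13a3 at 6.70, 6.73, 6.62 and 7.24 (WT) and 4.60, 4.76, 4.90, 4.85 and 4.74 (ApoE). Every ApoE array was below every WT array for both, with falls of 2.10 ± 0.19 and 2.06 ± 0.38. Iron and heme genes were called higher in 3 and lower in 4 of 19 cases: the heme exporter Flvcr1 and the transferrin receptor Tfrc rose by 0.86 and 0.63, the biliverdin reductase Blvrb fell by 0.82, and the ferritin heavy chain Fth1 was 13.58 against 13.60 (adjusted p 0.884).

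Mitochondrial respiration genes had no large difference among those named. Complex I subunits were called in 3 of 34 cases (3 higher, 0 lower), and those of complexes II to V in 8 of 31 (4 higher, 4 lower). That is 8.82% and 25.8% called, against 16.9% of all rows and 28.8% of those left after rows of low mean were dropped. For complex I the 3 became 1 without WT replicate 1 or WT replicate 4, and 2 were lower without WT replicate 2 or ApoE replicate 3 and 3 without ApoE replicate 5. For complexes II to V the 4 lower became 1 without WT replicate 1, 3 or 4 or without ApoE replicate 1 or 2. Of 23 glycolysis and hypoxia genes 5 rose and 3 fell. The enolase Eno2 and the phosphofructokinase Pfkp rose by 1.003 and 0.97, the lactate carrier Slc16a1 by 0.51, and Pkm, the pyruvate kinase gene, fell by 0.30. Hif1a was 10.44 against 10.20 (adjusted p 0.0588).

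Vegfa, the main growth factor of blood vessels, was at 8.33, 8.33, 8.53 and 8.42 (WT) and 10.21, 10.26, 10.39, 10.26 and 10.22 (ApoE). The ApoE arrays were all close together and far above the WT arrays, a rise of 1.87 ± 0.10 (adjusted p 7.18e-10). Its family member Vegfb rose by 0.91 and the receptor gene Kdr (VEGFR2) by 1.65 ± 0.19, from 4.92, 4.81, 4.89 and 4.79 (WT) to 6.55, 6.96, 6.64, 6.82 and 5.55 (ApoE). Pecam1 fell by 0.57. Kdr and Vwf (von Willebrand factor, 1.61) are also endothelial markers. The other 4 of 6 endothelial markers, Cdh5, Tek, Emcn and Esam, were read at 4.532 or lower in every array, and none passed.

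Acidification and digestion genes rose in part. Of 15 subunits of the vacuolar proton pump 8 rose and 1 fell, with a median of 0.40 (0 fell without WT replicate 1, 3 or 4 or ApoE replicate 1, and 2 without ApoE replicate 3). Atp6v0d2, a macrophage and osteoclast form of subunit d, was at 9.33, 9.37, 9.12 and 9.27 (WT) and 10.42, 10.37, 10.52, 10.54 and 10.39 (ApoE) (rise of 1.18), and Atp6v1c1 and Atp6v1a rose by 1.08 and 0.75. Of 22 lysosomal genes 9 rose and 3 fell: alpha-galactosidase (Gla) rose by 0.97, cathepsin K (Ctsk) by 0.56 and the autophagy receptor Sqstm1 by 0.64, while cathepsin C (Ctsc), which activates granule proteases, fell by 0.67. Cathepsins B and D, at 0.05 and 0.05, did not pass (adjusted p 0.452 and 0.64). Of 15 autophagy genes 2 rose and 2 fell, with the starting kinase Ulk1 at -0.79. That is 26.7% called, near the 28.8% of rows left after those of low mean were dropped. When any one of the 4 WT arrays or of ApoE replicates 1 to 4 was left out, 1 autophagy gene rose, and 1 fell without WT replicate 1 or 3 or ApoE replicate 3 or 5.

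Coagulation genes were led by F5, which encodes the cofactor of the enzyme complex that makes thrombin. It was at 5.75, 6.003, 5.67 and 6.10 (WT) and 8.71, 8.87, 8.96, 9.36 and 8.70 (ApoE), with no overlap, and rose by 3.04 ± 0.13 (adjusted p 1.01e-10). Of 14 coagulation and plasminogen genes 4 rose and 4 fell. F10 and F7, the protease of that complex and the partner of tissue factor, rose by 0.95 and 0.80. On the anticoagulant side Procr, the protein C receptor, fell by 1.19, thrombomodulin (Thbd) by 0.47 and protein S (Pros1) by 0.58, whereas the tissue factor inhibitor Tfpi rose by 0.45. The transglutaminase F13a1 fell by 0.995.

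Adhesion genes numbered 5 higher and 9 lower of 22. Itgb3 was at 5.91, 6.03, 6.38 and 6.18 (WT) and 7.25, 7.97, 7.78, 8.04 and 8.31 (ApoE) and rose by 1.74, and Itga2b, its partner in the platelet fibrinogen receptor, rose by 1.46. Itgal, the alpha chain of LFA-1, was at 8.03, 7.96, 8.19 and 8.22 (WT) and 6.18, 6.43, 6.28, 6.54 and 6.86 (ApoE) and fell by 1.64. Itgam, the alpha chain of Mac-1, fell by 0.85, the LFA-1 ligand Icam1 by 0.94 and the actin regulator Coro1a by 1.11. Of 6 megakaryocyte and platelet markers measured, Itga2b itself among them, 5 rose and 1 fell. Gp1bb, 1 of the 5, did not pass without WT replicate 1 or without both ApoE replicates 2 and 5. The mean of the 6, which includes Itga2b, was 6.301 to 6.484 in WT arrays and 6.638 to 7.435 in ApoE arrays. Ppbp was at 7.82, 7.86, 8.07 and 7.75 (WT) and 8.62, 8.64, 9.69, 9.73 and 9.83 (ApoE), a rise of 1.43, and Gp9 rose by 0.96, but Pf4, another platelet chemokine that macrophages also make, fell by 0.57. The part of such cells in the values of Itga2b, Itgb3, F5 and Clec1b was not tested.

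Matrix genes were called higher in 4 and lower in 5 of 16 cases (3 lower without WT replicate 1). Mmp14, a membrane-bound collagenase, was at 7.16, 6.96, 6.71 and 6.94 (WT) and 5.12, 5.78, 5.58, 5.41 and 5.66 (ApoE) and fell by 1.43. Mmp27 and the matrix glycoprotein Thbs1 rose by 1.56 and 1.06. Of 13 efferocytosis genes, which serve the clearance of dying cells, 2 rose and 3 fell. The bridging proteins Gas6 and Mfge8 rose by 0.82 and 0.58, and Pros1 fell. The receptor gene Mertk was 10.74 against 10.67 (adjusted p 0.51).

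Transcription factors of the macrophage lineage fell in 9 of 19 cases and rose in 4. Id3, which blocks basic helix-loop-helix factors, was at 7.34, 7.32, 7.75 and 7.69 (WT) and 5.54, 4.82, 5.46, 5.26 and 5.60 (ApoE) and fell by 2.19 ± 0.13. Its relative Id2 went up by 1.08, from 8.92, 8.92, 8.82 and 8.87 (WT) to 9.82, 10.01, 10.11, 10.20 and 9.69 (ApoE). The repressors Bhlhe41 and Bhlhe40 rose by 1.87 and 0.97. Among factors that establish myeloid identity Cebpa fell by 0.89 and Spi1 (PU.1) by 0.62, Irf5 and Mitf fell by 0.66 and 0.75, and Irf8 was at -0.11 (adjusted p 0.367). Of 21 immediate early genes 3 rose and 6 fell. The AP-1 subunits divided, with Jun higher by 1.11 and Fos and Junb lower at -0.73 and -0.62, and Egr1 was 5.65 against 5.69 (adjusted p 0.95).

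Growth factor genes included Csf1, M-CSF itself, which rose by 0.70, while its receptor Csf1r fell by 0.39 and the GM-CSF receptor alpha chain Csf2ra by 0.64. Of 15 genes of this group 4 rose and 6 fell, and 2 rose without ApoE replicates 2 and 5. Pdgfb fell by 1.31. Alternative activation genes, those induced by interleukin-4, rose in 2 of 15 cases and fell in 0, with the transglutaminase Tgm2 at 1.13. That is 13.3% called, below the 16.9% of all rows, with a median of 0.04. When any one WT array or ApoE replicate 5 was left out, 1 of these rose, and 1 fell without WT replicate 2 or ApoE replicate 3, 4 or 5. Of 11 osteoclast and fusion genes 2 rose and 3 fell, and 1 fell without WT replicate 3 or WT replicate 4. Tnfrsf11a, the RANK receptor, fell by 0.998, while the fusion receptor gene Dcstamp was 4.56 against 4.98 (adjusted p 0.154).

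Markers of cell types were read in the same arrays. Of 9 macrophage markers 7 fell and 1 rose, and their mean was 11.002 to 11.054 in the WT arrays and 10.44 to 10.66 in the ApoE arrays. Aif1 fell by 1.42, Fcgr1 by 0.72, Adgre1 by 0.48 and Csf1r by 0.39, whereas Cd68 rose by 0.24. Early neutrophil granule markers had 1 of 5 higher (Mpo, 0.81), with a mean of 6.420 to 6.645 in WT arrays and 6.377 to 7.400 in ApoE arrays, highest in replicate 5 (2 higher without WT replicate 4 or ApoE replicate 1 or 3). Late neutrophil markers had 1 higher (S100a9) and 1 lower (Mmp8) of 12, with means of 8.03 to 8.48 and 7.89 to 9.11. The higher count was 0 without WT replicate 1, ApoE replicate 2, ApoE replicate 5 or both of these ApoE arrays, 2 without ApoE replicate 3 and 4 without ApoE replicate 1. Mmp8 did not pass without WT replicate 1, 3 or 4 or ApoE replicate 3, which leaves 0 lower. Of 9 dendritic cell markers 4 rose and 1 fell, and 2 rose without WT replicate 1, without WT replicate 4 or without both ApoE replicates 2 and 5. The 1 lower became 0 without WT replicate 1, 2 or 3 or ApoE replicate 1, 2 or 4. Clec9a and Cd209a, 2 of the 4, were at most 4.68 and 4.90 in any ApoE array.

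The remaining marker lists had few calls. Mast cell, basophil and eosinophil markers had 1 higher and 1 lower of 10, at means of 4.20 to 4.37 in WT and 4.25 to 4.51 in ApoE arrays. The 1 lower became 0 without WT replicate 1, 3 or 4 or ApoE replicate 1, 3 or 4. B cell markers had 0 higher and 2 lower of 5, and 0 lower without WT replicate 3, WT replicate 4 or ApoE replicate 1 (1 without WT replicate 1 or ApoE replicate 2 or 4). There were, for erythroid and stromal markers, 0 called of 5 and of 8. Cd4 rose by 1.19 (6.71, 6.41, 6.74 and 6.82 in WT and 7.51, 7.35, 8.14, 7.97 and 8.33 in ApoE arrays), while the T cell receptor partners Cd3d, Cd3e and Cd3g and the co-receptor Cd8a were read at 4.073 or lower in every array. The part of neutrophil, megakaryocyte and macrophage content in the differences above was not tested.

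**Figure D4:**
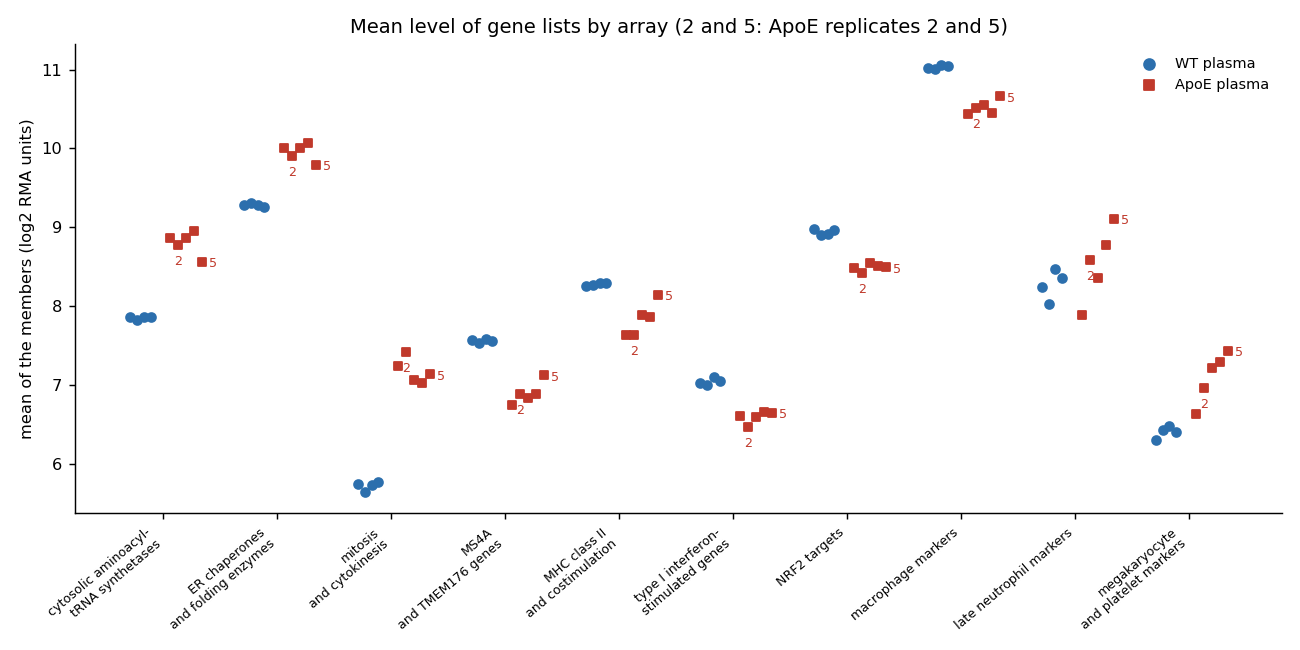
Mean level of the members of 10 gene lists (vertical axis, log2 units) in each of the 4 WT arrays (blue circles) and 5 ApoE arrays (red squares). WT and ApoE arrays are apart for 9 of the 10 lists, for mitosis genes at 5.65 to 5.77 and 7.02 to 7.42, whereas late neutrophil markers overlap, at 8.03 to 8.48 and 7.89 to 9.11; ApoE replicate 5 is nearest to WT for the synthetases, at 8.56, and for the MS4A and TMEM176 genes, at 7.12.

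Plasma from ApoE mice that also lacked a stabilin gives a frame for these values, and the comparisons share the ApoE arrays. Cd300e had a mean of 6.04 with AS1 and 4.86 with AS2 plasma, 4.94 with ApoE and 8.64 with WT plasma; the AS1 mean was 1.10 above ApoE (adjusted p 0.000306), and AS2 differed from ApoE by -0.08 (adjusted p 0.845). F5 was 8.60 with AS1 plasma, -0.32 from ApoE (adjusted p 0.164), and 5.82 with AS2 plasma, -3.10 from ApoE (adjusted p 1.52e-11). Asns had intermediate means, 7.60 with AS1 and 8.45 with AS2 plasma, lower than ApoE at -2.10 and -1.25 (adjusted p 3.08e-06 and 3.41e-05). Prc1 was 7.44 and 8.47, with AS2 above ApoE by 0.91 (adjusted p 3.21e-06) and AS1 differing from it by -0.12 (adjusted p 0.619). For Id3 both were lower still, at 4.79 and 4.64 (adjusted p against ApoE 0.0148 and 0.000468). Cbr2 was 4.98 and 4.64, and neither differed from ApoE at the threshold (adjusted p 0.935 and 0.38). The genes thus had no single order of the 4 plasmas.

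**Figure D5:**
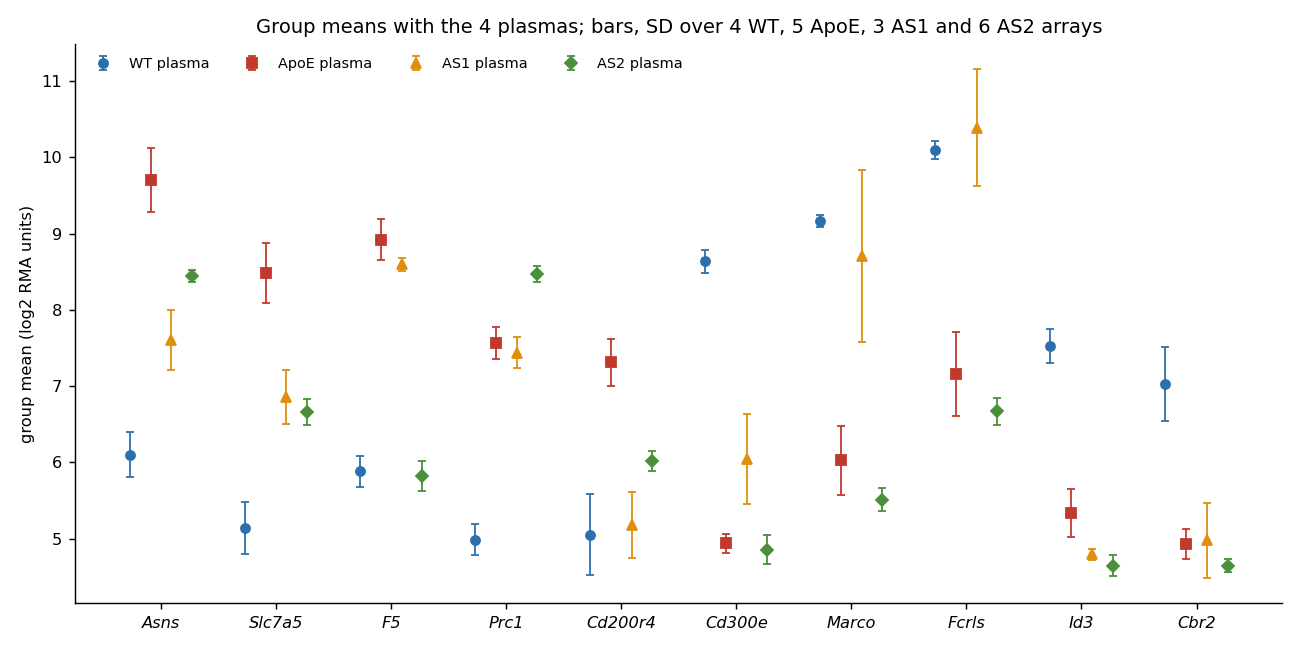
Group means (vertical axis, log2 units) with SD of 10 genes after WT (4 arrays), ApoE (5), AS1 (3) and AS2 (6) plasma. F5 is high after ApoE and AS1 plasma, at 8.92 and 8.60, and lower after WT and AS2 plasma, at 5.88 and 5.82, while Id3 is lowest after AS1 and AS2 plasma, at 4.79 and 4.64.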

How the data were processed

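The deposited values were log2 expression values made with RMA (background correction, equalised array distributions, summarised probes), per the submitters' processing notes. No RMA version or probe set definition is stated in them. Equalised distributions hide any change in total RNA. From these values limma 3.58.1 in R 4.3.3 fitted a mean for each of the 4 plasmas over all 18 arrays (14 residual degrees of freedom) to the 24705 named rows, with two-sided tests, Benjamini-Hochberg adjustment and a threshold of 0.05. The number of arrays, not read depth, limits the precision. Levels of different genes are not comparable.

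The comparison, the 68 gene lists (56 pathway, 12 marker) and the motifs were chosen with earlier results of these data known, and the histone list was changed to current symbols once the table was seen. Of 1421 list members 1362 had a row, 8 through another symbol, and the others were not analysed here. Named genes were the 15 largest called increases and decreases, without predicted, small RNA and pseudogenes; per list the called members of smallest p, up to 6 in each direction (8 in lists of over 30 members), and the 2 brightest not called; all marker genes; and 7 fixed genes. The text prints part of them. Lists have counts and medians and no test. Motifs were counted in RefSeq promoters of GRCm38.p6 (32851 promoters of 27025 genes), with positions counted from the start site. Alternatives were other row filters, scalings and variance models, array weights, the 2 groups alone, a replicate block, a minimum difference, and arrays left out. Scripts were tested on simulated data.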

Additional observations from a re-analysis of the deposited data

Results flagged for a closer look

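Among the 30 genes with the largest differences, 60 groups of arrays were tested for a single array far from the rest by Dixon's test, and 2 groups had one. Chance gives about 1 such group in 20. Both were in ApoE replicate 2, the array farthest from its group. Cbr2 was 5.273 there, against 4.799 to 4.877 in the other ApoE arrays, a gap of 0.835 of the group's range. Nqo1 was 4.882 there, against 5.202 to 5.308, a gap of 0.752. In both genes this array lay on the same side of the WT arrays as the other ApoE arrays.

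The rows without a gene symbol were outside the comparison. Fitted together with the named rows, 149 of 723 were called between ApoE and WT plasma (20.6%), 68 higher and 81 lower.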

How the results depend on the processing

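With a minimum difference of 0.5 log2 units as the null hypothesis, 447 rows were called rather than 4177, 268 higher and 179 lower. The lower interferon-stimulated genes then went from 19 to 4, NRF2 targets from 12 to 2, Toll-like receptor genes from 13 to 3 and MHC class II genes from 11 to 2. The higher DNA replication genes went from 21 to 2 and cytosolic synthetases from 17 to 11. Higher ER chaperones went from 24 to 9, and ATF4 and CHOP regulators from 15 to 6. Under the other alternatives the number of called rows stayed within 1.5 times of 4177, from 3257 with the ApoE and WT arrays alone to 4348 without ApoE replicate 5; leaving out single arrays gave 3571 to 4348. Of 426 named genes called, 0 changed sign in any alternative, and 288 were no longer called with the minimum difference, 58 with the 2 groups alone, 23 without ApoE replicates 2 and 5, 9 with array weights and 10 to 43 without a single array. Deviations of same-numbered WT and ApoE arrays from their group means had correlations of -0.066, -0.034, 0.094 and -0.011 for numbers 1 to 4. The highest with another number were 0.049, 0.156, 0.024 and 0.049. The labels do not say whether the number pairs arrays, and values this small cannot settle it. With the number as a replicate block 3945 rows were called and 17 named genes lost their call. Renewed quantile normalization and median centring left the calls of all 426 in place. Counts of 0 became 1 without a single array for lower folate enzymes (ApoE replicate 2), DNA replication (WT replicate 2), ribosome biogenesis (ApoE replicate 3) and endothelial genes (ApoE replicate 5), and for higher cholesterol synthesis (ApoE replicate 5), NF-kB (ApoE replicate 2) and stromal genes (WT replicate 4). Of the rows left after those of low mean were dropped 28.8% were called, against 16.9% of all; the cause was not tested.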
